A study of Mus musculus with 12 samples.

Results

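The 10 genes described here are Nfe2l2, which encodes the transcription factor NRF2, and 9 of its established target genes, namely Hmox1, Nqo1, Gclc, Gclm, Srxn1, Txnrd1, Slc7a11, Gsr and Osgin1. They were taken by gene symbol, and all 10 were listed in both deposited expression tables, out of 18607 genes listed in either table. RNA-seq was made from primary neurons of C57BL/6 mice on day 10 of 2 treatments, which serve the study as models of ageing neurons. In the oncogene model, neurons over-expressed H-Ras(G12V), an oncogenic form of the GTPase H-Ras that is locked in its active state, from an adeno-associated virus (3 libraries), and were set against control neurons with the fluorescent protein mCherry, labelled WT (3 libraries). In the stress model, WT neurons received etoposide, a topoisomerase II poison that breaks DNA (3 libraries), and were set against WT neurons with its solvent DMSO (3 libraries). The promoter of the virus, the dose of etoposide and the age of the mice are not given in the sources used here. Separate cultures or animals are not stated for libraries of 1 group either, and p-values then cover the spread between libraries alone, which may be technical. For the 6 libraries of the stress model the title, the library name and the column name name 1 group and the treatment tag names the other, and the titles were followed. All directions reported for etoposide are those of the libraries with etoposide in their title.

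NRF2 is held at a low level by KEAP1, an adaptor that hands it to a cullin ubiquitin ligase for degradation. When electrophiles or oxidants modify KEAP1, NRF2 accumulates, enters the nucleus with a small MAF partner and binds antioxidant response elements near genes for glutathione synthesis, the thioredoxin system, haem breakdown and quinone reduction. In the brain this response is known to be strong in astrocytes and weak in mature neurons.

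Antioxidant response elements were looked for in the promoter windows of the members, since the members share a regulator that binds them. RefSeq windows of 300 bases, 250 before the transcript start and 50 after it (build GRCm38.p6), were on hand for 7 of the 10 members, and Hmox1, Gclc and Gsr had none in the table used. The core TGACNNNGC or its variant TGAGNNNGC, on either strand, was found in a window of 6 of these 7 members, and in 27.8% of all 32851 windows (12.4% for the first and 17.6% for the second). The exception was Nqo1, and no match says only that these letters are not in this window. For Txnrd1, 1 of its 3 windows held a core. The 7 members had 9 windows in all, and the 27.8% is a share of windows, not of genes. One match per member is printed below in the direction of the gene, with the core in capitals. A match is a description of the letters and not a measured binding site.
Gclm, chr3:122245403-122245451, plus strand: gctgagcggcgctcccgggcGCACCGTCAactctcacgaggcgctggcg
Srxn1, chr2:152105459-152105507, plus strand: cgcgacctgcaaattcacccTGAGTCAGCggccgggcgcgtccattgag
Txnrd1, chr10:82859094-82859142, plus strand: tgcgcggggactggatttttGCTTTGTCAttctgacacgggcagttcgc
Slc7a11, chr3:50443682-50443730, minus strand: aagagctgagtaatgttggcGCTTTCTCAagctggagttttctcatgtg
Osgin1, chr8:119437028-119437076, plus strand: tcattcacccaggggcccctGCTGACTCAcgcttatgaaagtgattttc
Nfe2l2, chr2:75704875-75704913, minus strand: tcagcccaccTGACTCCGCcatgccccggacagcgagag

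In Srxn1 and Osgin1 the printed core overlaps TGACTCA (or TGAGTCA, the same site on the other strand), the site of AP-1 factors. That site was found in these 2 of the 7 members and in 5.2% of all windows. The printed core lay between 45 and 37 bases before the start in Srxn1 and between 99 and 91 bases before it in Osgin1. The Srxn1 window held 3 cores in all. The others lay between 158 and 150 bases before the start and between 28 and 36 bases after it. A second AP-1 site of Srxn1, between 102 and 96 bases before the start, overlapped no core.

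Values are FPKM, fragment numbers scaled to transcript length and library size, so levels of different genes can be set side by side. A gene was tested where its mean over the 6 libraries of a table was at least 1 FPKM, and it was called at a Benjamini-Hochberg adjusted p under 0.05 in limma, over all genes tested. Log2 fold changes were computed from FPKM + 1, which makes them too small for genes with little RNA. The number of genes with at least 1 FPKM was between 11829 and 12728 per library. Within 3 groups, library 3 stood apart. Across all listed genes, the rank correlation of mCherry libraries 1 and 2 was 0.993, and mCherry library 3 reached 0.965 and 0.963 with them. That of etoposide libraries 1 and 2 was 0.976, and etoposide library 3 reached 0.921 and 0.946 with them. That of DMSO libraries 1 and 2 was 0.99, and DMSO library 3 reached 0.979 and 0.974 with them. The mouse gene Hras read 38.4, 51.6 and 33.5 FPKM in H-Ras(G12V) libraries 1, 2 and 3, against 45.9, 43.0 and 44.2 FPKM in the mCherry libraries. It gave no check of the H-Ras(G12V) label, because no source used here gives the species of the viral sequence.

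Under H-Ras(G12V), the members that rose were Srxn1 and Txnrd1, both enzymes of thiol repair. Nfe2l2 itself was also above all mCherry libraries without passing the test, and the values of the glutathione genes overlapped those of the controls. The 2 calls among 9 tested members stand beside 10.3% of the 12724 tested genes called higher, and 17% called in either direction. The groups did not overlap, with H-Ras(G12V) higher, for 3 of 9 members and for 23.7% of tested genes. The median log2 fold change was 0.16 over the 9 tested members and 0.05 over all tested genes. The plot of levels in each library shows all 10 genes.

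**Figure D1:**
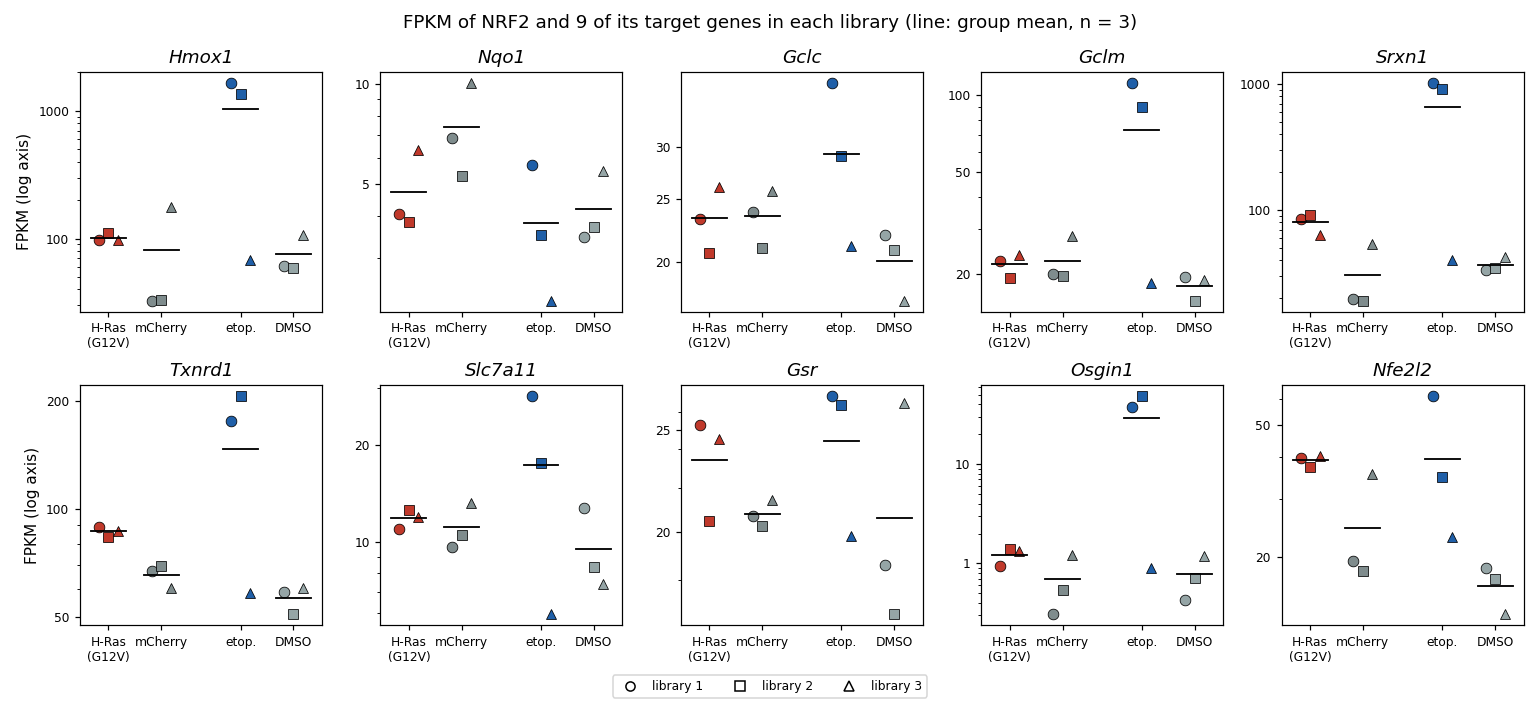
Level of each member (FPKM, log axis) in the 12 libraries, with 1 symbol per library number and a line at the mean of each group (n = 3). Etoposide libraries 1 and 2 sit far above the DMSO libraries for Hmox1, Gclm, Srxn1, Txnrd1 and Osgin1, etoposide library 3 sits among them, and mCherry library 3 sits above mCherry libraries 1 and 2 for Hmox1, Srxn1, Osgin1 and Nfe2l2.

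Srxn1 encodes sulfiredoxin, which restores peroxiredoxins that have been over-oxidised. It read 85.4, 92.5 and 63.4 FPKM in H-Ras(G12V) libraries 1, 2 and 3, against 19.7, 19.1 and 53.6 FPKM in mCherry libraries 1, 2 and 3. All 3 H-Ras(G12V) libraries lay above all mCherry libraries, and mCherry library 3 lay closer to them than to the other controls. The log2 fold change was 1.51 ± 0.39 (SE), with a limma adjusted p of 0.0418 and a mean of 80.4 ± 15.2 FPKM against 30.8 ± 19.7 FPKM (SD, n = 3 each). Txnrd1 encodes the cytosolic thioredoxin reductase, which keeps thioredoxin reduced with electrons from NADPH. It read 89.3, 83.7 and 87.0 FPKM in the H-Ras(G12V) libraries, against 67.0, 69.2 and 60.4 FPKM in the mCherry libraries. The groups were tight and apart, and the rise was small, at 0.40 ± 0.11 on the log2 scale (adjusted p = 0.0471 in limma).

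Both calls rest close to the threshold. With any library other than mCherry library 3 left out, neither passed, with limma adjusted p between 0.0949 and 0.132 for Srxn1 and between 0.0636 and 0.161 for Txnrd1. Neither passed after scaling to a common sum (0.0554 and 0.142) or by the median of ratios (0.0513 and 0.0748), which move the median of all genes to -0.07 and -0.01, against 0.05 unscaled. Over all genes these scalings called 856 higher and 1332 lower, and 1046 higher and 1084 lower, against 1312 higher and 849 lower unscaled. On a common sum the log2 fold changes were 1.37 for Srxn1 and 0.26 for Txnrd1.

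Nfe2l2 read 39.7, 37.4 and 40.4 FPKM in the H-Ras(G12V) libraries, against 19.5, 18.2 and 35.5 FPKM in the mCherry libraries. The groups did not overlap, with mCherry library 3 just under the H-Ras(G12V) libraries, and the log2 fold change of 0.73 ± 0.24 did not pass (adjusted p = 0.0846 in limma). Hmox1 encodes haem oxygenase 1, which breaks haem down to biliverdin, iron and carbon monoxide. It read 97.0, 110.2 and 98.2 FPKM in the H-Ras(G12V) libraries, against 32.5, 32.8 and 177 FPKM in the mCherry libraries. The H-Ras(G12V) libraries thus lay between mCherry libraries 1 and 2 and mCherry library 3, which was the highest of the 6, and the log2 fold change of 0.81 ± 0.61 did not pass (adjusted p = 0.390 in limma).

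Nqo1 encodes a quinone reductase that is among the most used readouts of NRF2. It read 4.05, 3.84 and 6.31 FPKM in the H-Ras(G12V) libraries, against 6.85, 5.28 and 10.1 FPKM in the mCherry libraries. It was the only tested member whose estimate lay well under 0, at -0.54 ± 0.25 on the log2 scale, and it did not pass (adjusted p = 0.183 in limma). Osgin1, named as a growth inhibitor induced by oxidative stress, read 0.95, 1.40 and 1.33 FPKM in the H-Ras(G12V) libraries, against 0.31, 0.54 and 1.22 FPKM in the mCherry libraries. Its mean was under 1 FPKM, so it was not among the tested genes. With no filter on low levels its log2 fold change was 0.43 ± 0.20 (limma adjusted p = 0.220).

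The members that make and recycle glutathione showed the smallest differences. Gclc and Gclm encode the catalytic and the modifier subunit of glutamate-cysteine ligase, the rate-limiting enzyme of glutathione synthesis. Gclc read 23.3, 20.7 and 26.1 FPKM in the H-Ras(G12V) libraries, against 23.9, 21.1 and 25.7 FPKM in the mCherry libraries. Gclm read 22.6, 19.2 and 23.8 FPKM in the H-Ras(G12V) libraries, against 20.1, 19.6 and 28.1 FPKM in the mCherry libraries. The ranges of both genes overlapped, with limma adjusted p of 0.959 for Gclc and 0.920 for Gclm. Slc7a11, the cystine importer that supplies glutathione synthesis, read 10.9, 12.6 and 11.96 FPKM in the H-Ras(G12V) libraries, against 9.63, 10.5 and 13.2 FPKM in the mCherry libraries. Gsr, the reductase that regenerates glutathione from its oxidised form, read 25.3, 20.5 and 24.6 FPKM in the H-Ras(G12V) libraries, against 20.7, 20.3 and 21.5 FPKM in the mCherry libraries. Neither passed, with limma adjusted p of 0.699 for Slc7a11 and 0.392 for Gsr.

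Leaving out any single library moved the number of members called, to 4 without mCherry library 3 and, as given above, to none without any of the other 5. mCherry library 3 was above the mCherry mean for 9 of the 10 members, against 2 of 10 for mCherry library 1 and 1 of 10 for mCherry library 2. A high library 3 itself lifts that mean above libraries 1 and 2, so these counts are not separate. The share of all genes was not counted. The median of all tested genes lay 0.018, -0.002 and -0.018 log2 units from the mCherry mean in mCherry libraries 1, 2 and 3. Without mCherry library 3, the 4 of 9 members called were all higher, beside 25.4% of all tested genes. These were Hmox1 (log2 fold change 1.61 ± 0.10, limma adjusted p = 5.08e-05), Srxn1 (1.98 ± 0.16, 0.000120), Txnrd1 (0.34 ± 0.09, 0.0190) and Nfe2l2 (1.02 ± 0.10, 0.000230). That fit takes its control spread from mCherry libraries 1 and 2 alone, which had the highest rank correlation of any pair within a group. In roughly estimated fragment counts they also differed least, with a chi-square per degree of freedom of 4.2, against 159 and 162 with mCherry library 3. The small SEs and p-values of that fit rest in part on this closeness.

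The etoposide libraries fell into 2 kinds. In etoposide libraries 1 and 2 most of the members stood far above DMSO, led by Osgin1, Srxn1 and Hmox1, and in etoposide library 3 the same genes stood near DMSO levels. With all 6 libraries, limma called 0 of the 10 members, beside 0% of the 12371 tested genes called higher and 0.453% called in either direction. The genes called with all 6 libraries were 56, all lower, and the number with 1 library left out ran from 4 without DMSO library 3 to 3908 without etoposide library 3. At an unadjusted p under 0.05, 6 of 10 members were higher (Hmox1, Gclm, Srxn1, Txnrd1, Osgin1 and Nfe2l2), as were 7.42% of tested genes. The median log2 fold change was 1.15 over the 10 members and 0.09 over all tested genes.

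Osgin1 read 37.8, 48.5 and 0.90 FPKM in etoposide libraries 1, 2 and 3, against 0.43, 0.71 and 1.19 FPKM in DMSO libraries 1, 2 and 3. Set against the DMSO mean this was 48.7, 62.5 and 1.16 times, from a gene that had roughly 25, 45 and 80 fragments in the DMSO libraries. Its log2 fold change was 3.14 ± 1.04 (limma adjusted p = 0.353). Srxn1 showed the same split at a higher level, with 1027, 909 and 39.9 FPKM in the etoposide libraries, against 33.3, 34.6 and 42.8 FPKM in the DMSO libraries. The 2 high libraries were 27.8 and 24.6 times the DMSO mean and library 3 was 1.08 times it, with a log2 fold change of 3.16 ± 1.04 (adjusted p = 0.353 in limma).

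Hmox1 read 1654, 1348 and 67.5 FPKM in the etoposide libraries, against 60.8, 59.1 and 107 FPKM in the DMSO libraries. In etoposide libraries 1 and 2 it made up 0.269% and 0.248% of the summed FPKM of all genes, against at most 0.0191% in the DMSO libraries. The log2 fold change of 2.86 ± 1.03 did not pass (adjusted p = 0.353 in limma). Txnrd1 read 176, 206 and 58.2 FPKM in the etoposide libraries, against 58.6, 51.0 and 60.2 FPKM in the DMSO libraries, with a log2 fold change of 1.17 ± 0.44 (adjusted p = 0.355 in limma). For both genes library 3 lay inside the DMSO range.

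Gclm read 112, 89.9 and 18.4 FPKM in the etoposide libraries, against 19.5, 15.7 and 18.9 FPKM in the DMSO libraries. Its partner Gclc read 37.7, 29.1 and 21.2 FPKM in the etoposide libraries, against 22.0, 20.9 and 17.5 FPKM in the DMSO libraries. The 2 subunits of the same enzyme thus differed in size, with Gclm at 6.19, 4.99 and 1.02 times its DMSO mean in etoposide libraries 1, 2 and 3 and Gclc at 1.87, 1.45 and 1.05 times its own. Slc7a11 read 28.4, 17.5 and 5.97 FPKM in the etoposide libraries, against 12.7, 8.34 and 7.42 FPKM in the DMSO libraries. Here library 3 was the lowest of the 6. Gsr read 27.0, 26.5 and 19.8 FPKM in the etoposide libraries, against 18.6, 16.7 and 26.5 FPKM in the DMSO libraries, with DMSO library 3 level with etoposide library 2. Log2 fold changes were 1.62 ± 0.58 for Gclm, 0.49 ± 0.29 for Gclc, 0.60 ± 0.50 for Slc7a11 and 0.25 ± 0.28 for Gsr, and no limma adjusted p was under 0.353.

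Nfe2l2 was the only member with all etoposide libraries above all DMSO libraries, as 7.64% of tested genes were. It read 61.1, 34.7 and 22.9 FPKM in the etoposide libraries, against 18.6, 17.1 and 13.5 FPKM in the DMSO libraries, with a log2 fold change of 1.12 ± 0.36 (adjusted p = 0.353 in limma). Nqo1 stood apart from the other targets, with 5.68, 3.51 and 2.23 FPKM in the etoposide libraries, against 3.46, 3.72 and 5.47 FPKM in the DMSO libraries. Etoposide library 1 was the highest and library 3 the lowest of the 6 (log2 fold change -0.16 ± 0.34, limma adjusted p = 0.815).

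Counted by library, 7 of the 10 members in etoposide library 1, 6 in library 2 and 0 in library 3 lay at least 1 log2 unit above their DMSO mean. Over all tested genes the shares were 14.9%, 12.6% and 0.388%. In H-Ras(G12V) libraries 1, 2 and 3 the count was 1 member each, beside 4.64%, 5.49% and 5.48% of tested genes, and in mCherry library 3 it was also 1, beside 2.39% of tested genes. Without etoposide library 3, limma called 7 of 10 members higher, beside 18.3% of tested genes. They were Srxn1 (log2 fold change 4.68 ± 0.24, adjusted p = 1.32e-05), Osgin1 (4.65 ± 0.28, 2.13e-05), Hmox1 (4.34 ± 0.31, 4.93e-05), Gclm (2.42 ± 0.24, 0.000227), Txnrd1 (1.74 ± 0.23, 0.000903), Nfe2l2 (1.45 ± 0.29, 0.00623) and Slc7a11 (1.18 ± 0.31, 0.0191). Gclc (0.70 ± 0.25, 0.0560), Gsr (0.38 ± 0.27, 0.293) and Nqo1 (0.09 ± 0.29, 0.837) did not pass. The library was left out after its values had been seen, and without any other single library 0 of 10 members passed.

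**Figure D2:**
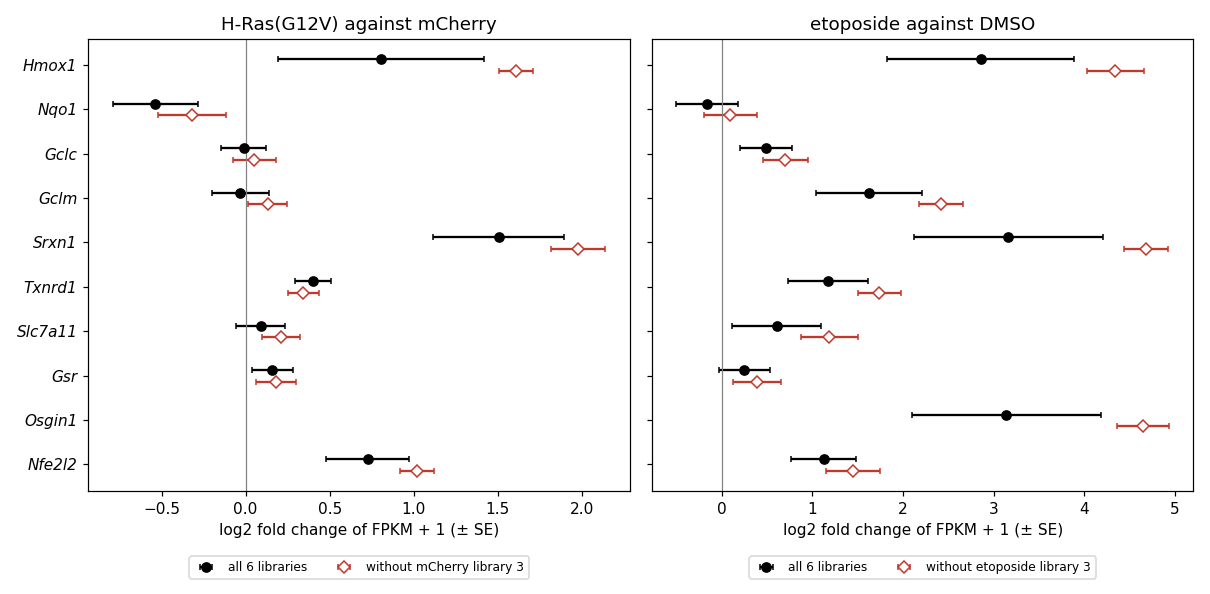
Log2 fold change of FPKM + 1 with its SE for each member, with all 6 libraries (black circles) and without mCherry library 3 or etoposide library 3 (open diamonds), on the left for H-Ras(G12V) against mCherry and on the right for etoposide against DMSO. Leaving out etoposide library 3 moves Srxn1 to 4.68 with an SE of 0.24, against 3.16 with an SE of 1.04 over all libraries, while Nqo1, Gclc and Gsr stay under 1 in both fits; Osgin1 has no point on the left because it was not tested there.

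The falls that etoposide library 3 shared with libraries 1 and 2 were elsewhere. Of the oligodendrocyte lineage markers, Gpr17, a receptor of committed progenitors, read 0.11, 0.05 and 0 FPKM in the etoposide libraries, against 27.8, 25.6 and 16.6 FPKM in the DMSO libraries. Sox10, a lineage transcription factor, read 0.09, 0.14 and 0.01 FPKM in the etoposide libraries, against 25.1, 18.8 and 25.4 FPKM in the DMSO libraries. Both passed with all 6 libraries (limma adjusted p = 0.000497 for each), so library 3 differed from DMSO in these genes and stood near it in the NRF2 targets. In bulk RNA, fewer cells of a type and less RNA per cell cannot be told apart.

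The difference between the models was tested over the 12 libraries by subtracting the etoposide effect from the H-Ras(G12V) effect, with each effect taken within its own table. The tables were treated as normalised separately. With all libraries 0 of 9 tested members passed in limma, beside 2.78% of 12179 genes, and 1 member, Gclm, had an unadjusted p under 0.05 (0.0343), as did 17.3% of genes. The differences ran from -2.05 ± 1.39 for Hmox1 to -0.09 ± 0.29 for Gsr. All 9 were under 0, and the median over the 12179 genes was also under 0, at -0.07. All members were read in the same libraries, so their signs are not separate observations. Without etoposide library 3, 5 members passed, each with the smaller effect under H-Ras(G12V), beside 11.6% of genes called in that direction. These were Hmox1 (-3.53, adjusted p = 0.00963 in limma), Srxn1 (-3.18, 0.00152), Gclm (-2.45, 0.000251), Txnrd1 (-1.34, 0.00161) and Slc7a11 (-1.10, 0.0418). Without mCherry library 3 as well, Slc7a11 no longer passed (0.0536) and the other 4 did, beside 16.2% of genes.

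The members varied together to different degrees. Etoposide libraries 1 and 2 formed a cluster of their own in the members' values, so correlations were read within the 10 other libraries, on log2(FPKM + 1) centred on the control mean of each table. Over the 45 pairs of members, Pearson's r ran from -0.56 to 0.88 with a median of 0.32. The highest values were those of Hmox1 with Osgin1 (0.88), Srxn1 with Nfe2l2 (0.86) and Hmox1 with Srxn1 (0.84). These libraries include mCherry library 3, which was high for all 4 genes among the controls, and they share their table's depth and processing. Only the control mean was taken off, so differences between the H-Ras(G12V) and mCherry groups also enter r, as in Srxn1 and Nfe2l2. Within groups, the highest Hmox1 value was 1.14 times the lowest in the H-Ras(G12V) libraries, against 5.45 times in the mCherry libraries, and 24.5 times in the etoposide libraries, against 1.82 times in the DMSO libraries. For Osgin1 the etoposide libraries spanned 53.9 times, the widest span of any member in any group.

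The genes most like the 9 targets were ranked by Pearson's r, over the 12 libraries, with the mean of the scaled target values. Among the genes tested in both tables, members left out, the top 5 were AA467197 (0.997), Hspa9 (0.99), Tmem39a (0.988), Rab22a (0.986) and Ube2f (0.986). All 5 had their highest values in etoposide libraries 1 and 2, which the ranking kept and which raise r between genes high in both. Over the 45 pairs of members, the median r was 0.81 with all 12 libraries, against 0.32 without those 2. How many of all genes reach a similar r was not counted. AA467197 read 40.6, 24.3 and 0.54 FPKM in the etoposide libraries, against 0.88, 0.54 and 1.89 FPKM in the DMSO libraries. Hspa9, which encodes the mitochondrial HSP70 chaperone mortalin, read 373, 311 and 144 FPKM in the etoposide libraries, against 156, 138 and 162 FPKM in the DMSO libraries. Among the members themselves the same r was 0.98 for Gclm, 0.97 for Hmox1 and 0.447 for Nqo1, each of which is part of that mean.

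Other genes of the pathway, and targets of the stress response factor ATF4, were followed in 8 lists with 101 genes. Under H-Ras(G12V), 19 of 100 tested genes rose, 7 of them in the ATF4 list, and 2 fell, beside 10.3% and 6.67% of all tested genes. The median log2 fold change of the 100 genes, with the ATF4 list included, was 0.32 against 0.05 over all tested genes. Without mCherry library 3 the counts were 49 and 6, beside 3236 and 2486 of all 12724 tested genes, and without any other single library between 6 and 13 passed in all, beside 507 to 1158 of all tested genes. Among NRF2 regulators and partners 1 of 14 rose, the small MAF gene Maff, with 6.16, 8.73 and 6.12 FPKM in H-Ras(G12V) libraries, against 2.73, 2.56 and 2.5 FPKM in mCherry libraries (adjusted p = 0.00725 in limma). Keap1 read 19.6, 24.3 and 19.4 FPKM in the H-Ras(G12V) libraries, against 23.1, 21.2 and 24.4 FPKM in the mCherry libraries, and did not pass (limma adjusted p = 0.551; it was named after its values were seen).

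Of 21 glutathione genes 3 rose and none fell, beside 10.3% of all tested genes called higher and 6.67% called lower. The counts of the other lists, here and in the next paragraph, stand beside the same shares. Gpx3, a secreted glutathione peroxidase, read 27.5, 31.3 and 42.1 FPKM in the H-Ras(G12V) libraries, against 6.01, 5.71 and 11.7 FPKM in the mCherry libraries (adjusted p = 0.00684 in limma). The other two were the transferase Gstt1 (log2 fold change 1.61) and the gamma-glutamyl cyclotransferase Ggct (0.55). Of 14 thioredoxin and peroxiredoxin genes 4 rose, namely Txn1, Prdx6, Sesn2 and Sesn3. Txn1, the thioredoxin that Txnrd1 reduces, read 368, 391 and 489 FPKM in the H-Ras(G12V) libraries, against 191, 172 and 234 FPKM in the mCherry libraries (adjusted p = 0.0108 in limma).

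Of 10 haem and iron genes Blvra, which reduces the biliverdin made by haem oxygenase, rose, and the iron transporters Tfrc and Slc40a1 fell. Tfrc, the transferrin receptor, read 33.9, 25.9 and 34.0 FPKM in the H-Ras(G12V) libraries, against 78.2, 79.8 and 53.4 FPKM in the mCherry libraries (limma adjusted p = 0.0130). Of 14 tested aldehyde and quinone genes 2 rose, the aldo-keto reductase Akr1b8 (log2 fold change 2.27) and the UDP-glucose dehydrogenase Ugdh (0.70). One NADPH gene of 9 rose (Pgls) and 1 superoxide gene of 7 (Ccs). In the haem, aldehyde, NADPH and superoxide lists the rising genes were thus near the 10.3% of all tested genes called higher. The list with the most calls was that of ATF4, the factor of the integrated stress response that also controls Slc7a11. There 7 of 14 genes rose, among them Atf3 (log2 fold change 1.24), Ddit3 (1.10), Shmt2 (1.09) and Sesn2 (1.06), with a list median of 0.73.

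With etoposide, 0 of 98 tested genes of these lists passed in limma over the 6 libraries. Without etoposide library 3 the count was 33 higher, 8 of them in the ATF4 list, and 6 lower, beside 18.3% and 13.3% of all tested genes. The median over these lists was 0.48 against 0.15 over all tested genes. The most abundant were the ferritin subunit genes, which store iron. Ftl1 read 7659, 4233 and 974 FPKM in the etoposide libraries, against 785, 1012 and 1217 FPKM in the DMSO libraries. Library 3 again lay among the DMSO values. Prdx1, a peroxiredoxin that sulfiredoxin repairs, read 597, 445 and 215 FPKM in the etoposide libraries, against 209.8, 211 and 320.2 FPKM in the DMSO libraries. Taldo1, of the pentose phosphate pathway, read 354, 259.8 and 114 FPKM in the etoposide libraries, against 117, 108 and 173 FPKM in the DMSO libraries.

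Not every gene of the lists followed that order. Idh1, which makes NADPH in the cytosol, read 39.7, 51.0 and 193 FPKM in the etoposide libraries, against 186, 152 and 153 FPKM in the DMSO libraries, and Cat, which encodes catalase, read 53.2, 47.1 and 52.9 FPKM in the etoposide libraries, against 54.3, 49.3 and 55.7 FPKM in the DMSO libraries. Keap1 read 18.8, 24.0 and 24.6 FPKM in the etoposide libraries, against 24.8, 24.4 and 34.4 FPKM in the DMSO libraries. Of the glutathione list, 4 of 21 genes were higher and 3 lower at an unadjusted limma p under 0.05, beside 918 and 806 of all 12371 tested genes. Gstm1, a glutathione transferase, read 323, 198 and 328 FPKM in the etoposide libraries, against 442.5, 361 and 728 FPKM in the DMSO libraries, with the etoposide libraries all lower (limma adjusted p = 0.357). Gpx4, the peroxidase that reduces lipid peroxides, read 574, 427 and 278 FPKM in the etoposide libraries, against 303, 288 and 471 FPKM in the DMSO libraries. A few further genes were named after their values were seen, for their likeness to the targets. Gsta4, a transferase that clears lipid aldehydes, read 707, 578 and 73.0 FPKM in the etoposide libraries, against 66.1, 58.4 and 90.2 FPKM in the DMSO libraries. Gss, the second enzyme of glutathione synthesis, read 62.6, 54.5 and 10.4 FPKM in the etoposide libraries, against 8.81, 8.34 and 13.4 FPKM in the DMSO libraries. The small MAF gene Mafk read 38.8, 26.1 and 6.82 FPKM in the etoposide libraries, against 4.47, 6.11 and 5.63 FPKM in the DMSO libraries. In these 3 genes library 3 lay in or next to the DMSO range.

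The ATF4 list split likewise. Its median over the 14 genes lay 1.07, 1.19 and -0.38 log2 units from the DMSO mean in etoposide libraries 1, 2 and 3, and that of the 10 NRF2 members lay at 1.74, 1.45 and 0.04. In the H-Ras(G12V) libraries the ATF4 list lay at 0.71, 0.77 and 0.72 and the NRF2 members at 0.27, 0.17 and 0.23, against 0.27 and 0.32 in mCherry library 3.

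**Figure D3:**
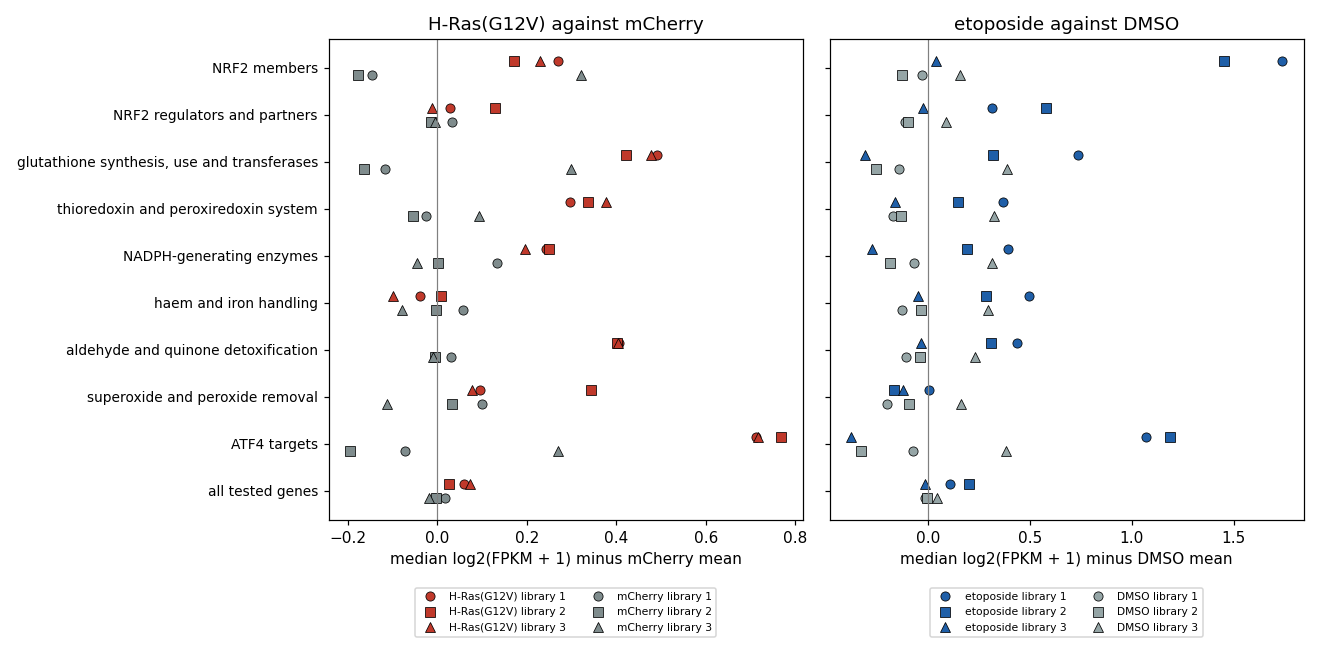
Median of log2(FPKM + 1) minus the mean of the control group, for the NRF2 members, the 8 other lists and all tested genes, with 1 point per library (left, H-Ras(G12V) above mCherry; right, etoposide above DMSO). For the NRF2 members etoposide libraries 1 and 2 lie at 1.74 and 1.45 and library 3 at 0.04, and mCherry library 3 lies at 0.32, above the H-Ras(G12V) libraries.

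Markers of several cell types also differed between libraries, not all in the order of the NRF2 members, and their part in these results was not tested. Of all tested genes, 10.3% were called higher and 6.67% lower under H-Ras(G12V), and the marker counts in this paragraph stand beside these shares. Astrocyte markers summed to between 2577 and 3717 FPKM in the H-Ras(G12V) libraries, against 1191, 1198 and 3153 FPKM in mCherry libraries 1, 2 and 3, and 2 of 10 were called higher (Aldh1l1 and Sox9). Oligodendrocyte lineage markers summed to between 934 and 1150 FPKM in the H-Ras(G12V) libraries, against 297, 230.2 and 778 FPKM in the mCherry libraries, and 6 of 9 tested were called higher. In both sums mCherry library 3 lay nearer to the H-Ras(G12V) libraries than to mCherry libraries 1 and 2, as it did for Srxn1 and Nfe2l2. Neural progenitor markers summed to between 5338 and 6304 FPKM in the H-Ras(G12V) libraries, against 2892 to 3629 FPKM in the mCherry libraries (5 of 8 called higher). Neuronal markers summed to between 1159 and 1359 FPKM in the H-Ras(G12V) libraries, against 1730 to 2209 FPKM in the mCherry libraries (1 of 10 called higher and 3 lower). Fibroblast and mural markers summed to between 37.9 and 41.5 FPKM in the H-Ras(G12V) libraries, against 189 to 278 FPKM in the mCherry libraries (9 of 10 called lower).

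In the etoposide libraries the neuronal sum was 626, 1328 and 2343 FPKM, against 2042, 1979 and 1709 FPKM in DMSO libraries 1, 2 and 3. The library whose NRF2 targets stood near DMSO thus had the highest neuronal sum of the 6. Of etoposide libraries 1 and 2, library 1 had the lower neuronal sum and the higher value of every member but Osgin1 and Txnrd1. Those 2 genes were higher in library 2, and Gsr differed little (27.0 against 26.5 FPKM). A link between this order and the neuronal sum was not tested. The oligodendrocyte lineage sum was 118, 78.0 and 220.0 FPKM in the etoposide libraries, against 719, 563 and 924 FPKM in the DMSO libraries (4 of 9 tested called lower). Of all tested genes 0.453% were called with etoposide, all lower, and the marker counts in this paragraph stand beside that share. Astrocyte markers summed to 978, 622 and 885 FPKM in the etoposide libraries, against 1394, 1033 and 1600 FPKM in the DMSO libraries (0 of 9 tested called in limma). Neural progenitor markers summed to 984, 532 and 848 FPKM in the etoposide libraries, against 2434, 1918 and 2028 FPKM in the DMSO libraries, so all 3 etoposide sums were lower. Most of the DMSO sums was Fabp7, at 120, 60.8 and 618 FPKM with etoposide, against 2184, 1612 and 1729 FPKM with DMSO. Vim was higher in etoposide libraries 1 and 2, at 752, 382 and 186 FPKM, against 149, 210 and 214 FPKM with DMSO. Neither gene passed (limma adjusted p = 0.116 for Fabp7 and 0.368 for Vim). Of the 7 progenitor markers tested, 1 was called lower, the Notch effector Hes5, with 1.43, 0.69 and 1.89 FPKM in the etoposide libraries, against 16.4, 8.97 and 21.5 FPKM in the DMSO libraries (limma adjusted p = 0.0163). Fibroblast and mural markers summed to 452, 92.3 and 286 FPKM in the etoposide libraries, against 172, 421 and 139 FPKM in the DMSO libraries, and followed neither the split nor the groups.

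Markers of endothelial cells were near 0 in all 12 libraries, with sums between 0.81 and 5.43 FPKM, and Cldn5 was listed at 0 in all H-Ras(G12V) libraries. Microglial markers summed to between 28.1 and 45.7 FPKM in the H-Ras(G12V) libraries, against 17.8 to 26.2 FPKM in the mCherry libraries, and to between 29.8 and 65.3 FPKM in the etoposide libraries, against 20.4 to 59.5 FPKM in the DMSO libraries. Their defining marker Cx3cr1 did not exceed 0.31 FPKM in any library. All 10 neuronal markers were at 1 FPKM or more in every library, as the label of primary neurons has it, and of the 10 astrocyte markers 9 or 10 were at that level in each library.

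**Figure D4:**
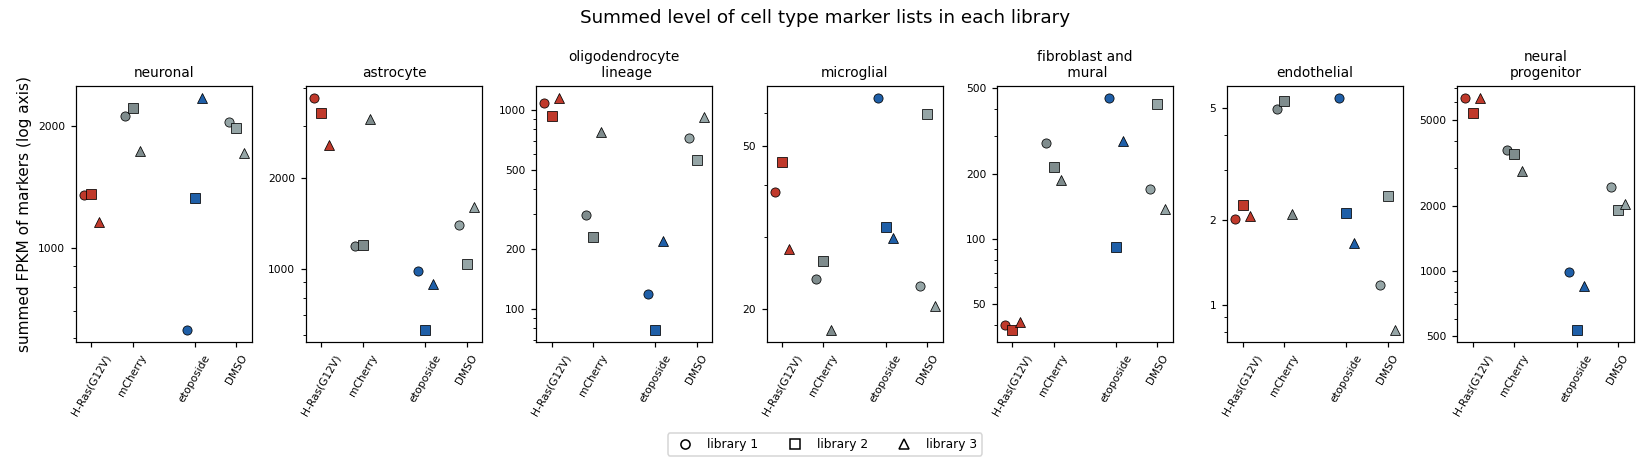
Summed FPKM (log axis) of 7 cell type marker lists in the 12 libraries, with 1 symbol per library number. mCherry library 3 lies beside the H-Ras(G12V) libraries for astrocyte markers (3153 FPKM), and etoposide library 3 has the highest neuronal sum of its table (2343 FPKM) and, with libraries 1 and 2, oligodendrocyte lineage sums under every DMSO library.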

How the data were processed

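The members and all gene lists were chosen with earlier results of these data known. Expression was deposited by the authors as FPKM per gene and library, with 2 decimals, in 1 table per model (18223 and 17800 genes), per the file headers. HISAT, Bowtie2, RSEM and the genome build mm9 are listed, with no role or version, in the submitters' processing notes. Read counts were not used here.

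Depth is not stated. The step between neighbouring low FPKM values of single-transcript genes put it, roughly, at 15520000 to 16920000 fragments per library of the oncogene model and at 25060000 to 29480000 per library of the stress model.

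FPKM plus 1 was log2-transformed and fitted with limma 3.58.1 (R 4.3.3; lmFit and eBayes with trend) wherever a gene averaged 1 FPKM or more over the 6 libraries of its table, with two-sided tests, Benjamini-Hochberg adjustment over all tested genes and a threshold of 0.05. The procedure was tested on simulated data. Groups came from titles and library names. A 3 against 3 exact permutation test cannot go under p = 0.1 and was not used. All members are named. Of each other list, up to 4 called genes with the largest change are named per comparison, or the 2 most abundant where fewer than 2 were called. The text gives some of these. Alternatives were other pseudocounts, filters and scalings, each library left out, a replicate block, no trend and a single fit of the 12 libraries. Chosen after seeing the data were the averaging of mCherry libraries 1 and 2 and the joint omission of mCherry library 3 and etoposide library 3. Promoter sequences are RefSeq's, on GRCm38.p6, another build than that of the tables.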

Additional observations from a re-analysis of the deposited data

How the results depend on the processing

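For single members, 22 alternative values under H-Ras(G12V) no longer passed, all of Srxn1 or Txnrd1, and 18 others passed where the result over all libraries had not, 2 under H-Ras(G12V), 7 with etoposide and 9 for the difference between the models. Signs changed for estimates near 0. With 1 library left out in turn, log2 fold changes under H-Ras(G12V) ranged from -0.092 to 0.069 for Gclc, -0.12 to 0.13 for Gclm and -9.9e-06 to 0.21 for Slc7a11, which was -0.041 on a common sum. Those of Nqo1 with etoposide ranged from -0.43 to 0.093, and the difference between the models for Gsr from -0.28 to 0.042. The cause was not tested.

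With 1 library left out in turn, members called ranged from 0 to 4 (H-Ras(G12V)), 0 to 7 (etoposide) and 0 to 5 (difference, and 4 without both mCherry library 3 and etoposide library 3). Genes of the other lists ranged from 6 to 55 and from 0 to 39, and all genes from 507 to 5722 and from 4 to 3908, the highest always without mCherry library 3 or etoposide library 3. Under H-Ras(G12V), 1 member was called with no filter, with a mean of at least 5 FPKM and with no trend. The count was 0 with either scaling, in the single fit of 12 libraries and with mCherry libraries 1 and 2 averaged, which keeps mCherry library 3 as 1 of 2 controls. The last 2 settings called 4 and 9 genes of the other lists and 307 and 630 of all genes, and a common sum called 12 of the lists. With etoposide, all genes called were 22 at a mean of at least 5 FPKM and 175 in the single fit.

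Libraries with the same number did not deviate together (r of -0.0387, 0.0343 and 0.119 under H-Ras(G12V), and -0.265, -0.171 and -0.151 with etoposide), so the numbers were not taken as pairs. With the replicate number as a block, 1 member was called under H-Ras(G12V) and 12 genes in all with etoposide.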
